A study of Drosophila melanogaster with 2 samples.

Results

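Among the 1500 Lim3 peaks that the authors listed from both embryo libraries, 268 had their summit in an intron more than 500 and at most 2500 bp from the nearest start of any transcript. They are called near-start intronic peaks here. The rule used the position of the summit alone: inside the span of a gene, in no exon of the Ensembl BDGP6 annotation with transposons left out, and at that distance. It was applied to the 1445 listed peaks on the 7 chromosome arms, and the other 55 peaks lay on scaffolds. The remaining arm peaks comprised 670 promoter peaks (within 500 bp of a start), 250 intronic peaks over 2500 bp from a start, 199 intergenic peaks and 58 peaks in exons.

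The data came from whole Drosophila melanogaster embryos aged 8 to 24 h, of a strain labelled Lim3-GFP that carries an insertion targeting Lim3 and makes a Lim3-eGFP fusion protein. Sonicated chromatin was precipitated with anti-GFP. There was 1 group with 2 biological replicates, both of this strain, and no control library was analysed here. A field named antibody reads Lim3 in the labels, whereas the description names anti-GFP. Whole embryos mix many cell types, and the promoter that drives the fusion is not given in the labels. A second age label holds no plausible embryo age and was not used.

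Lim3 is a LIM-homeodomain transcription factor, with a homeodomain that contacts DNA and LIM domains that bind partner proteins. In the fly it is known for its part, with the Islet protein Tailup, in the identity of motor neurons that project to ventral muscles. Homeodomains of this class commonly bind short AT-rich words such as TAATTA. First introns of fly genes, downstream of the promoter, often hold enhancers and further promoters.

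The windows below are from among the strongest near-start intronic peaks that were in the lists of both replicates, taken from the arms other than the right arm of the second chromosome. Of these, 5 are shown because they hold ACAGTG, the word that led the comparison with unlisted peaks, within 200 bp centred on the summit, and 3 because they hold TAATTA there. NFAT and norpA met both criteria, which leaves 6 windows of 300 bp centred on the summit. The sequences are from the RefSeq genome, release 6 (dm6), plus strand. Capitals mark ACAGTG, its reverse complement CACTGT, and TAATTA.
CG11050, chr2L:6612565-6612864: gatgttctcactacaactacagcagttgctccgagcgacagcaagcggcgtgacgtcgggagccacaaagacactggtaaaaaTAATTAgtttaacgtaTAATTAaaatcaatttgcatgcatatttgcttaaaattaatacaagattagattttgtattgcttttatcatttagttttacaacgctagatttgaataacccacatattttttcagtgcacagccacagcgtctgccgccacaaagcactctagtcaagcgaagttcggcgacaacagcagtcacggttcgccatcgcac
NFAT, chrX:13640348-13640647: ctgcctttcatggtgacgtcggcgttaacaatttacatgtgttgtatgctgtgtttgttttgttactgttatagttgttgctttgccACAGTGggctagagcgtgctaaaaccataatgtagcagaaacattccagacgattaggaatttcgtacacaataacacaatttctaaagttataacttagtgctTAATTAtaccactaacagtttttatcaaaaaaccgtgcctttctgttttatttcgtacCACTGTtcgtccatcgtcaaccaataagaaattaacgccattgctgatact
Raf, chrX:2297576-2297875: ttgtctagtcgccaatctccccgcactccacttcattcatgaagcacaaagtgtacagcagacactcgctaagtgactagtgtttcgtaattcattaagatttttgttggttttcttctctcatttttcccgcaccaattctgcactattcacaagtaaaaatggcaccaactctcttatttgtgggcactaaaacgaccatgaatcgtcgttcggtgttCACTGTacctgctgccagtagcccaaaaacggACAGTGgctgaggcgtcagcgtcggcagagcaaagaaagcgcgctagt
norpA, chrX:4324825-4325124: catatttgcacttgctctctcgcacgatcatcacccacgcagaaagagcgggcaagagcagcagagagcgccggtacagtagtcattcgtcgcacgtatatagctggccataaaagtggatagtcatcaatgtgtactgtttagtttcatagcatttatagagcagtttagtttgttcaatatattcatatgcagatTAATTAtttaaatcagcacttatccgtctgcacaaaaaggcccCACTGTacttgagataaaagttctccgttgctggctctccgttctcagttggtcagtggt
CHES-1-like, chrX:7706852-7707151: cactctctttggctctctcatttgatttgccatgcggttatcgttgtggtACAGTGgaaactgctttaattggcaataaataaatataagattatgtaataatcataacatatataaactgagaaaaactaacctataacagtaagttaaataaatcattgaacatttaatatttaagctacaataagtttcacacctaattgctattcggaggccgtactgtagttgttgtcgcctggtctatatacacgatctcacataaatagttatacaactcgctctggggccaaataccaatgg
for, chr2L:3655668-3655967: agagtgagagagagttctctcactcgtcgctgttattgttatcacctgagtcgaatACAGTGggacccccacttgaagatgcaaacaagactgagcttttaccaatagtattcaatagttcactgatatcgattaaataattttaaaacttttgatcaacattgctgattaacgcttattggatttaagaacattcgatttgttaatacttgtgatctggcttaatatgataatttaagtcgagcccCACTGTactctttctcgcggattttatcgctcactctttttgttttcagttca

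In the window of for, which encodes a cGMP-dependent protein kinase, ACAGTG lay 91 bp to the left of the summit and CACTGT 100 bp to the right. NFAT, the fly homologue of the NFAT transcription factors, had the same arrangement at 60 bp and 102 bp. In both windows the 2 copies faced each other across the summit. The CG11050 window held TAATTA at 64 bp and 48 bp to the left of its summit and no copy of ACAGTG.

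Peaks of this class were listed more often than deeper intronic ones. The full ranking from both libraries held 139295 peaks on the arms, of which 1.04% were in the list. Of the 14010 ranked peaks that met the position rule, 268 were listed (1.91%, Wilson 95% interval 1.70 to 2.15). Deeper in introns 250 of 38759 were listed (0.645%, 0.570 to 0.730), and at promoters 670 of 19099 (3.51%, 3.26 to 3.78). The odds of being listed were 3.0 times as high for near-start as for deeper intronic ranked peaks (95% interval 2.53 to 3.57, p = 2.63e-34, Fisher's exact test, two-sided). Peaks are not biological replicates, so this and the later tests on peaks cover counting alone, and neighbouring peaks can overlap.

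The listed share also fell with distance inside the class. It was 2.78% (2.32 to 3.33) of ranked intronic peaks at over 500 to 1000 bp, 1.85% (1.47 to 2.34) at 1001 to 1500 bp, 1.71% (1.32 to 2.20) at 1501 to 2000 bp and 0.985% (0.682 to 1.42) at 2001 to 2500 bp. Beyond the upper limit it was 0.996% (0.824 to 1.20) at 2501 to 5000 bp, so the limit of 2500 bp marked no step. It went down to 0.407% (0.322 to 0.516) past 10000 bp.

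**Figure D1:**
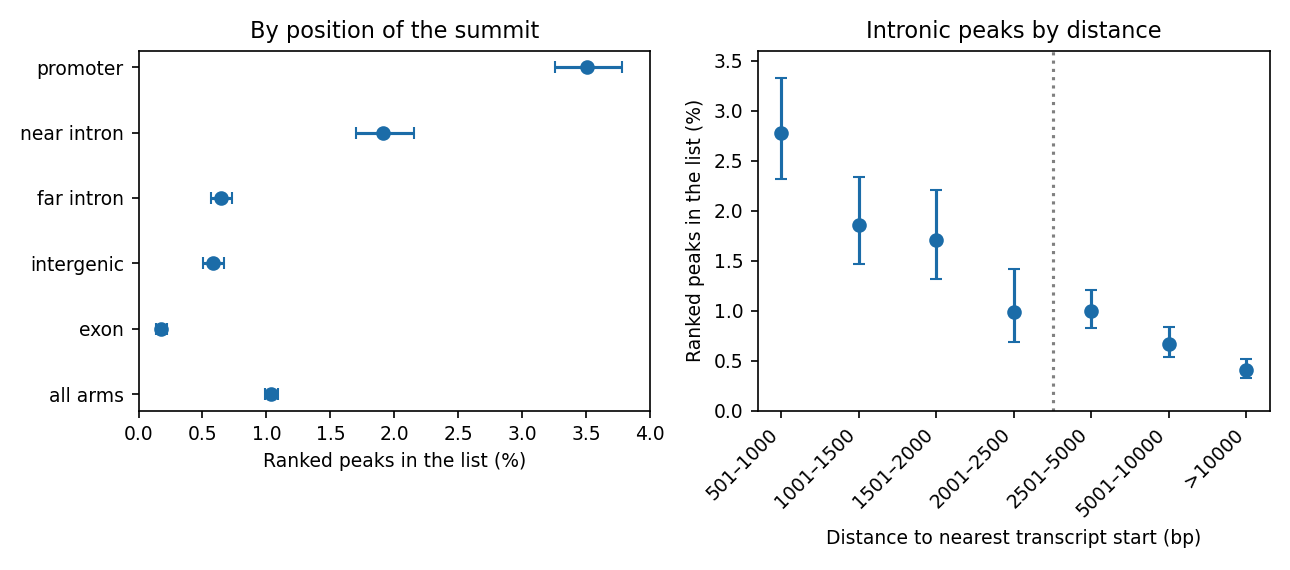
Share of ranked peaks that the authors listed (percent, points, with Wilson 95% intervals) by the place of the summit (left) and, for intronic peaks, by distance to the nearest transcript start in bp (right; the dotted line is the upper limit of the class). The share was 2.78% at over 500 to 1000 bp and 0.407% past 10000 bp.

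The members nearest to the lower limit lay in bun and Sclp, both at 502 bp with signals of 132 and 68.5, and in dpy at 504 bp. Listed peaks left out at the lower limit lay in the span of pAbp at 500 bp, of CG42671 at 497 bp and of ph-p at 492 bp, with signals of 95.3, 75.9 and 718. At the upper limit the members were in CG12769 at 2468 bp, in the overlapping genes lncRNA:CR44357 and CG1677 at 2465 bp and in Ubr3 at 2428 bp. The first ones beyond it were in kirre at 2537 bp, CG5521 at 2544 bp and ex at 2545 bp.

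Signal is the authors' value for each peak. Its scale is unknown here, so it is compared within a list alone. Its median over the 268 peaks was 92.2 (quartiles 72.5 and 133), with values from 2.20 to 935. Listed peaks deeper in introns had a median of 80.8 and promoter peaks one of 101. Most members, 230 of 268, had the common width of 330 bp.

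The strongest peak of the whole list belonged to the class. It lay in intron 2 of CG11050 (2L, 6612579 to 6612866), 1028 bp downstream of the start, in an intron of 140 bp, with a signal of 935 from both libraries, 404 in replicate 1 and 514 in replicate 2. Its place was 9 in replicate 1 and 1 in replicate 2. Next came a peak in both HmgZ and HmgD, overlapping genes of DNA-bending HMG-box proteins (2R, 21703255 to 21703612; 749.9, with 448 and 294 in the replicates). Both replicates thus ranked the CG11050 peak among their first 10.

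Several of the strongest hosts encode regulators of transcription or kinases. Adf1, a transcription factor gene first known from the alcohol dehydrogenase promoter, had a peak in intron 1 (2R, 6662942 to 6663187) with 507 in all, 297 in replicate 1 and 234 in replicate 2. Trl, which encodes GAGA factor, had 439 in all, 243 and 195 (3L, 14759378 to 14759636), and a second member, downstream of a start, at 112. Tlk, the gene of Tousled-like kinase, had 427, with 213 and 206 (X, 3742110 to 3742334).

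The remaining hosts among the 12 strongest members were less well known or of other kinds. The uncharacterised genes CG32772, CG12769, CG4496 and CG9837 had signals of 412, 399, 355 and 337. NFAT had 329, with 159 in replicate 1 and 169 in replicate 2 (X, 13640408 to 13640596). ImpL2, which encodes a secreted insulin-binding protein, had 299, with 169 and 138 (3L, 4228281 to 4228487). Raf, the kinase that passes the signal from Ras to the MAP kinase cascade, had 298, with 139.7 and 159.6 (X, 2297609 to 2297805). Each replicate listed all 12 of these peaks by itself.

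Each replicate's own list covered a part of the class. Of the 268 peaks, 88 (32.8%, 27.5 to 38.7) overlapped a peak of each replicate's own list, 36 one of replicate 1 alone, 66 one of replicate 2 alone, and 78 neither. A list from both libraries can hold peaks that neither replicate listed by itself, and 175 members overlapped the shorter list that the authors named conservative. The median signal was 167 for members in both lists, 88.3 for replicate 1 alone, 87.4 for replicate 2 alone and 68.3 for neither. Signal and lists come from the same libraries, so they are not independent. A ranked peak of replicate 1 was present at 231 members and one of replicate 2 at 267. Over the 231 with both values Spearman's rho was 0.525, given as a description across peaks of the same pair of libraries.

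**Figure D2:**
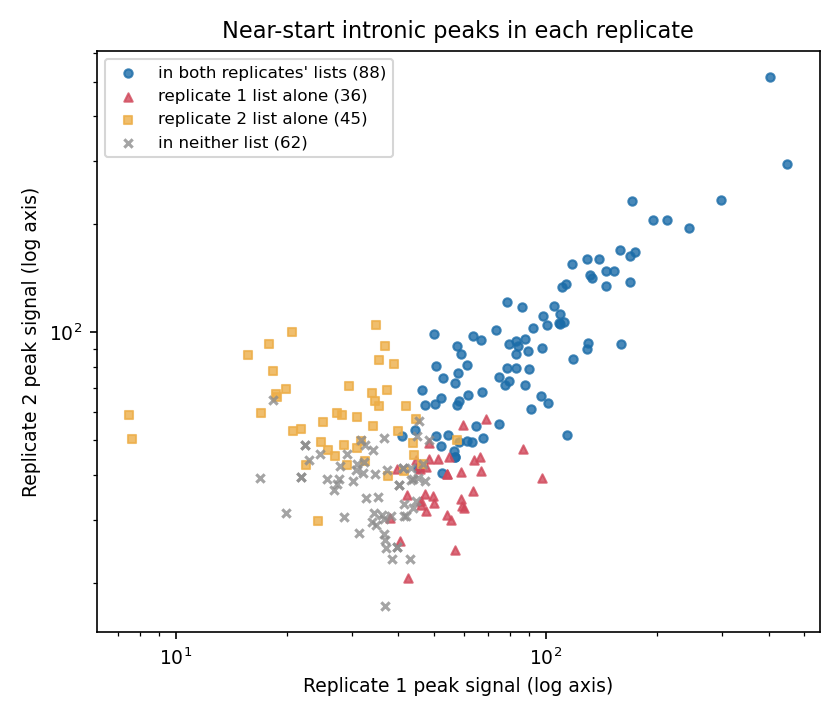
Signal of the 231 near-start intronic peaks with a ranked peak in both replicates, replicate 1 against replicate 2, both on log axes, with colour and marker for the replicates' own lists. The points at the upper right are the peaks in both lists, and Spearman's rho over all points was 0.525.

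The share in both lists was higher than among deeper intronic peaks, where it was 52 of 250 (20.8%, 16.2 to 26.3; odds ratio 1.85, 1.25 to 2.76, adjusted p = 0.00648, Fisher's exact test with Benjamini-Hochberg adjustment over 3 classes). This difference did not pass with the class limited to at most 1500 bp and all deeper peaks on the other side (32.8% against 23.9%, adjusted p = 0.0899, Fisher's exact test). Promoter peaks were in both lists at 40.6% (odds ratio 0.717, 0.533 to 0.965, adjusted p = 0.0466 by Fisher's exact test), and this was lost in each of the 5 alternatives run. Intergenic peaks were at 26.6% (odds ratio 1.34, 0.897 to 2.01, adjusted p = 0.155, Fisher's exact test).

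A small set of members had signals set apart below those of all the others. The signals of 11 members lay between 2.20 and 26.4, and the next lowest member had 46.6. Each of the 11 overlapped a stronger listed peak whose summit was 199 to 234 bp away and whose signal was 56.6 to 95.7. The −log10 IDR of the pair differed by at most 0.00422, and for 8 of the 11 the neighbour was a member too. The weak members were in Rip11, ush, amd, pot, FASN1, Kank, dlg1, dpy, Doa, milt and the overlapping CR44357 and CG1677, and replicate values at these sites can belong to the neighbour. They were named after their values were seen. Without listed peaks that overlap a stronger one, 257 members remained.

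The 268 members lay in 256 host genes, of which 233 had 1 member, 16 had 2 and 7 had 3 or more. Overlapping genes share members, and 25 members lay in more than 1 gene. In all, 3943 genes hosted a ranked peak meeting the position rule, and 6.49% of them had a member. The median number of such ranked peaks was 2 per gene over all hosts and 5 for the hosts of members, and the counts below are not adjusted for it.

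Clusters of members were mostly on X. The overlapping lncRNA:CR44357 and CG1677 had 6 between 7293089 and 7336511, with signals from 2.20 to 145, and 3 of them were in both replicates' lists. Their nearest starts were those of neighbouring genes, among them brk, Dok, unc-119 and CBP. The forkhead gene CHES-1-like had 5 between 7698265 and 7707090 with signals from 46.6 to 272, of which 2 were in both lists and 2 held ACAGTG. Tlk had 3 with signals from 93.9 to 427, and NFAT 3 with signals from 65.4 to 329. Off X, Kank had 3 on 2R (7.69 to 124) and Doa, a LAMMER kinase gene, 3 on 3R (3.32 to 105). In Kank and Doa 1 member each was among the weak ones above.

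Of the 12 gene lists chosen, the one for receptor tyrosine kinase signalling had the highest share of genes with a member, its interval overlapped those of other lists, and differences between lists were not tested. Of 20 genes of the EGFR, FGFR and ERK pathways with a ranked peak, 9 had a member (45%, Wilson 25.8 to 65.8), beside 6.49% over all genes, and 5 of the 9 had one in both replicates' lists. At the level of the ligand stood Star (S), which brings the EGFR ligand Spitz to the surface, with a signal of 180.4, at 84.3 and 91.7 in the replicates (2L, 1075919 to 1076022). Downstream of the receptor, drk, the Grb2 adaptor, had 131 (74.9 and 55.3; 2R, 13499578 to 13499907), nearest to the start of the neighbouring gene mars. Raf stood at 298 as given above. At the nuclear end edl, an antagonist of ETS factors, had 277 (132 and 145; 2R, 18671654 to 18671829). Lower members of the list were in aop, aos, pnt, sty and ths. No set test was run, the lists were chosen with earlier results known, and genes of the lists had a median of 4 ranked peaks against 2 over all genes.

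Chromatin and transcription genes had a member in 9 of 31 (29.0%, 16.1 to 46.6), beside 6.49% over all genes, and 6 of the 9 had one in both replicates' lists. HmgD and HmgZ, which share a peak, with Adf1, Trl, Tlk and CHES-1-like made up those 6. The other 3 were ph-p, sbb and ush. Genes of asymmetric division and the Notch pathway had 4 of 16 (25%, 10.2 to 49.5), counting dlg1, whose sole member (7.23) was among the weak ones above. Among these brat, a translational repressor that limits neuroblast self-renewal, had 216, with 109 and 105 in the replicates (2L, 19165083 to 19165224). The ubiquitin ligase gene neur, which acts on Delta, had 165, with 83.0 and 79.6 (3R, 9031985 to 9032083). Genes of the Wnt, Hedgehog, BMP and JAK/STAT pathways had 4 of 23 (17.4%, 6.98 to 37.1), led by the SMAD gene Mad at 173 (2L, 3153231 to 3153560). These lists too were chosen with earlier results known, and their shares stand beside the same 6.49% over all genes without a test.

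In the 5 neuronal lists the share of genes with a member was 0% to 14.8%, and each list's interval included the 6.49% over all genes. Neuronal identity and temporal transcription factors had 4 of 27 (14.8%, 5.92 to 32.5) and 0 in both lists, with grh at 92.8 and br at 74.4 the strongest. Axon guidance and adhesion genes had 2 of 42 (4.76%, 1.32 to 15.8), kirre and trio, and of these kirre had 1 at 95.8 in both lists. Synaptic and ion channel genes had 2 of 27 (7.41%, 2.06 to 23.4), the potassium channel gene Irk1 at 125 and Syn at 100.1. Of the motor neuron transcription factors 1 of 8 had a member, the GATA factor gene grn (73.9; 21.8 in replicate 1 and 53.7 in replicate 2; 3R, 8180688 to 8181017), and it was in the list of replicate 2 alone. LIM homeodomain genes and their cofactors had 0 of 9, with a Wilson upper bound of 29.9%. Lim3 itself had 10 ranked peaks that met the rule and 3 listed peaks in its span, none of them a member, and tup had 7 ranked peaks by the rule and 0 listed in its span.

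The 3 lists for other tissues and structures had 2 of 25 each (8.00%, 2.22 to 24.97). Muscle and mesoderm genes had kirre and Msp300, epidermis, trachea and gut genes had grh and ush, and cytoskeleton and polarity genes had kibra and Dhc64C. The dynein heavy chain gene Dhc64C stood at 223, with 105 and 118 in the replicates (3L, 4824943 to 4825083). The intervals of these 3 lists included the 6.49% over all genes.

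**Figure D3:**
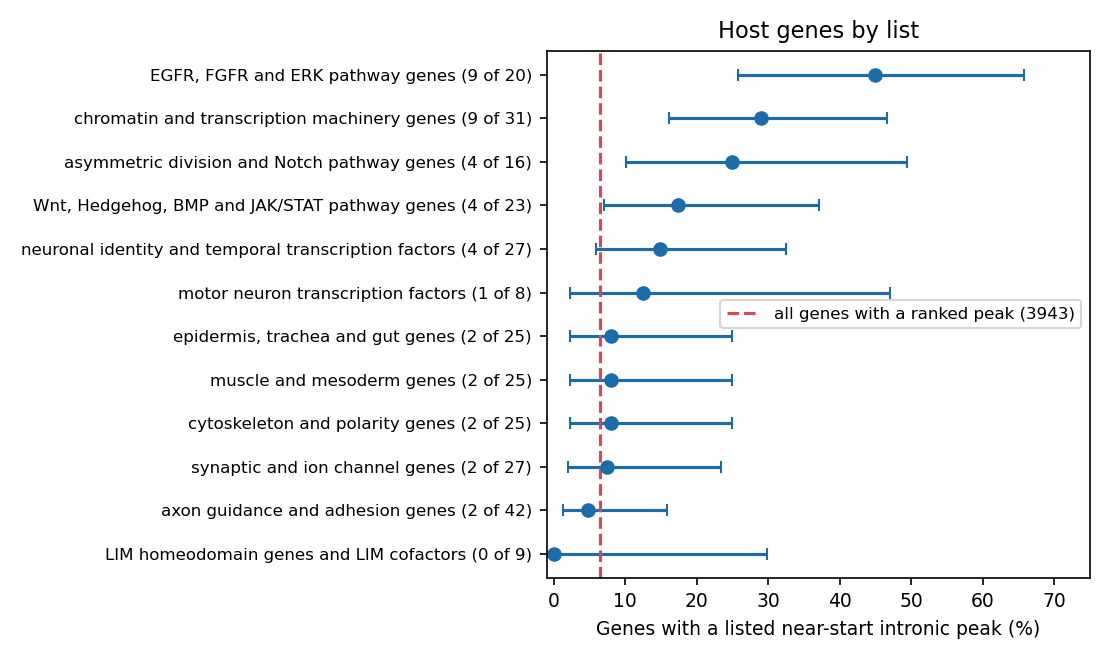
Share of genes with a near-start intronic peak in the list (percent, points, with Wilson 95% intervals) among genes with a ranked peak meeting the rule, for the 12 gene lists; the dashed line is the 6.49% over 3943 genes. The EGFR, FGFR and ERK list stood highest at 45%.

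The members lay mainly in first introns, a feature the rule did not use. For each summit the lowest intron number over all transcripts was taken. It was 1 for 222 of 268 (82.8%, 77.9 to 86.9), 2 for 32 and 3 or more for 14. The 13674 unlisted peaks that met the same position rule lay in a first intron in 63.2% (odds ratio 2.78, 2.03 to 3.83, p = 3.50e-12, Fisher's exact test, two-sided). In the canonical transcript alone the shares were 66.0% (142 of 215) and 48.7% (5883 of 12087; odds ratio 2.04, p = 4.10e-07, Fisher's exact test). Summits in no intron of a canonical transcript were left out there. The odds ratio was 2.66 within bins of distance to the start, 2.51 within bins of GC content and 2.35 within bins of intron length.

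No difference in the side of the start was detectable. Of the members 162 (60.4%, 54.5 to 66.1) lay downstream of the nearest start and 106 upstream, and of the unlisted peaks 63.4% lay downstream (p = 0.337, Fisher's exact test). The upstream ones were still inside a gene, since 77 of the 106 lay upstream of a later start of the host itself. The nearest exon was at a median of 723.5 bp and the median intron was 5464.5 bp long.

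**Figure D4:**
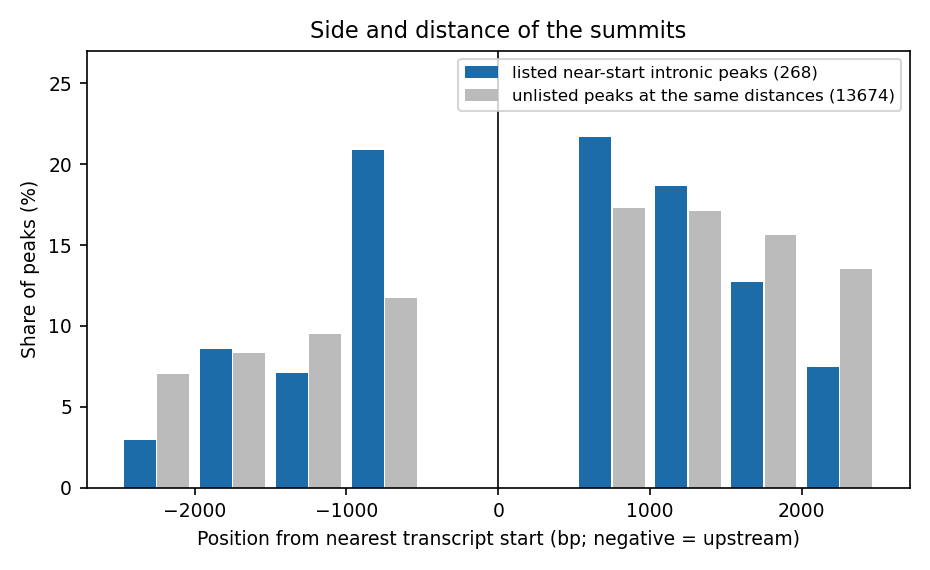
Position of the summits relative to the nearest transcript start (bp, bins of 500 bp, upstream negative) as percent of the 268 listed near-start intronic peaks (blue) and of the 13674 unlisted ones (grey). In both groups more peaks lay downstream than upstream, 60.4% and 63.4%.

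More members than unlisted peaks were on X, and this held in the list of replicate 1 and did not pass in that of replicate 2. X held 75 of 268 (28.0%, 23.0 to 33.6) against 18.7% (odds ratio 1.70, 1.29 to 2.22, adjusted p = 0.00186, Fisher's exact test with Benjamini-Hochberg adjustment over the arms). Each peak was counted singly, also where 1 locus on X held several, such as CR44357 with CG1677 (6) and CHES-1-like (5). In the list of replicate 1 the share of near-start intronic peaks on X was 34.8%, and in that of replicate 2 it was 24.1% (adjusted p = 0.183, Fisher's exact test). X held 18 of the 36 members that overlapped the list of replicate 1 alone and 13 of the 66 that overlapped that of replicate 2 alone. The call was also lost with the upper 50% of listed peaks by signal (27.9%, adjusted p = 0.0608) and with a limit of 1500 bp (24.04%, adjusted p = 0.472, Fisher's exact test). What set the replicates apart on X was not tested.

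The windows of the members were AT-rich. Their median GC content over 200 bp was 36% (quartiles 31.5 and 41.1), beside 37% at deeper intronic peaks, 34.5% at promoter peaks and 44% at unlisted peaks of the same position. Odds ratios of words against unlisted peaks are therefore given with and without bins of GC content. Both strands were searched, and words can overlap one another.

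Over all 2080 hexamers, 10.3% were higher in members and 8.94% lower, at an adjusted p of 0.05 or less (Fisher's exact test). Within GC bins of 5 points 1.15%, or 24 words, were higher and 0 lower (Cochran-Mantel-Haenszel test; 84 were lower at an unadjusted p under 0.05), and 17 words were higher both ways. ACAGTG came first by either test. It occurred in 71 of 268 windows (26.5%, 21.6 to 32.1) and in 9.0% of unlisted ones, an odds ratio of 3.66 (2.78 to 4.83, adjusted p = 3.82e-13, Fisher's exact test), or 3.51 within GC bins (adjusted p = 1.13e-16, Cochran-Mantel-Haenszel test). Deeper intronic peaks held it at 23.6%, promoter and intergenic peaks at 20.1% each.

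Within GC bins, words that share letters with it took places 2, 3, 4, 6 and 7. Without the bins ACTGTA was at place 3 and the others named next were at places 41 to 175. ACTGTA was in 22% of members against 6.77% (odds ratio 3.91, and 3.05 within GC bins), and CTGTAC in 11.6% against 4.29% (2.95 and 3.01). For CAGTGG the odds ratio was 1.78 (2.56 within GC bins), for ACTGTG it was 2.28 (2.39) and for CTGTGC 1.87 (2.30). In windows of 100 bp the call was lost for each of these 5 words but ACTGTA. That of ACTGTG was lost in the list of replicate 1 too (adjusted p = 0.120), and that of CTGTGC in the lists of replicate 1 (0.162) and replicate 2 (0.307) and with a limit of 1500 bp (0.0629; Fisher's exact test). CGCTAG, which shares no such overlap, was in 18 members (6.72% against 2.41%, odds ratio 2.99, 3.76 within GC bins), and its call was lost in the list of replicate 1, in the conservative list and in the upper 50% by signal. The eight-letter TACAGTGG was in 16 members (5.97%) and in 0.768% of unlisted windows. It was picked after the shorter words were seen.

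ACAGTG was more frequent beside the summits than at them. Within 50 bp of the summit 23 members had it (8.58%, 5.79 to 12.5), at 51 to 150 bp 86 had it (32.1%, 26.8 to 37.9), and at over 250 to 350 bp 23 had it (8.58%). Unlisted peaks had it at 4.57%, 9.08% and 8.15% in the same zones. The zone within 50 bp is narrower than the others, so shares of different zones are not directly comparable. In equal bins of 50 bp, members had it at 3.36% and 4.85% next to the summit. At 50 to 100 bp it was 10.8% on the left and 14.6% on the right. The share in windows of 100 bp was 7.46% against 4.30%, which did not pass (odds ratio 1.83, with an adjusted p of 0.132 by Fisher's exact test), and in windows of 300 bp it was 35.8% against 12.7% (odds ratio 3.84). Deeper intronic peaks showed the same pair of shoulders, with 7.20% within 50 bp and 25.2% at 51 to 150 bp.

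**Figure D5:**
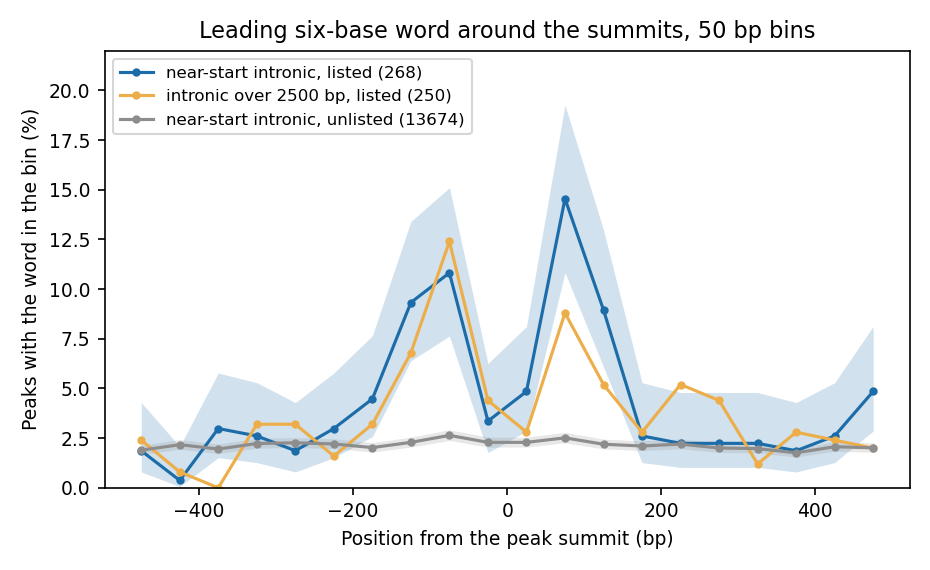
Share of peaks (percent) with the leading six-base word, on either strand, in bins of 50 bp from the summit; the bands are Wilson 95% intervals for the listed and unlisted near-start intronic peaks. The listed near-start peaks reached 14.6% at 50 to 100 bp to the right of the summit and 10.8% at 50 to 100 bp to the left, with 3.36% and 4.85% in the bins next to the summit.

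The flanking copies had an orientation. On the plus strand, 47 members had ACAGTG at 51 to 150 bp to the left of the summit and 6 had CACTGT there. To the right, 48 had CACTGT and 13 had ACAGTG. Copies facing the summit were thus the more frequent on each side. Among unlisted peaks the counts were 357 and 323 on the left, and 316 and 324 on the right. The layout was noticed after the word had been found in these windows, so the test of facing pairs against unlisted peaks given next is not independent of that choice.

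Both flanks carried a facing copy in 21 members (7.84%, 5.18 to 11.7), and the reverse layout, with both copies facing away, occurred in 0 of 268, which by the Wilson method allows up to 1.41%. Among unlisted peaks the facing pair was in 26 of 13674 (0.190%; odds ratio 44.7, 24.98 to 80.1, adjusted p = 1.33e-23 by Fisher's exact test over the 4 comparisons of this and the next paragraph) and the reverse in 12. The centres of the paired copies were 122 to 290 bp apart in members, with a median of 169 bp. The fixed zones searched on each flank bounded this spacing in every group. The median was 182 bp in unlisted, 166 bp in deeper intronic, 181 bp in promoter and 177 bp in intergenic peaks. Differences in spacing were not tested. The 21 members included those of NFAT, for, Btk, Tlk and Doa, 11 of them were on X, and 9 were in both replicates' lists.

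Facing pairs also occurred in the other classes of listed peaks, and no difference from them passed. They were present in 17 of 250 deeper intronic peaks (6.80%; odds ratio 1.16, 0.602 to 2.23, adjusted p = 0.737), in 35 of 670 promoter peaks (5.22%; 1.56, 0.892 to 2.71, adjusted p = 0.173) and in 7 of 199 intergenic peaks (3.52%; 2.23, 0.951 to 5.23, adjusted p = 0.149; Fisher's exact test). At promoter peaks ACAGTG outnumbered CACTGT on the left by 80 to 31, and CACTGT outnumbered ACAGTG on the right by 84 to 29. Promoter peaks did not enter the hexamer scan. The word was also in a word panel chosen with earlier results of these data known, so these counts are not independent of its choice. The summits of 0 of 268 members (Wilson upper bound 1.41%) lay in a transposon annotated by RefSeq, and of the unlisted peaks 0.636% did. Bases soft-masked by RefSeq, its mark for repetitive or simple sequence, made up a median of 18.5% of members' windows and 11.5% of unlisted ones. The median was 20.5% at deeper intronic, 21.5% at promoter and 16.5% at intergenic peaks.

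TAATTA was in 57 of 268 windows (21.3%, 16.8 to 26.6) against 13.5% of unlisted ones (odds ratio 1.75, 1.30 to 2.35, adjusted p = 0.00172 over 18 panel words, Fisher's exact test), and within GC bins the odds ratio was 1.12 (adjusted p = 0.542, Cochran-Mantel-Haenszel test). Rearrangements of its letters were as high or higher without the bins, AATATT at 2.74, TTATAA at 2.52 and ATTAAT at 1.87, and within them they were 1.40, 1.28 and 1.19, of which none passed. TGATAA, the word of GATA factors, was in 23.1% against 12.8% (odds ratio 2.07, and 1.46 within GC bins). Of the 18 panel words 6 passed, and 4 within GC bins, where GAGAG (1.57), the word of GAGA factor, and the E-box CAGCTG (1.84) passed beside TGATAA and ACAGTG. Without the bins these words did not pass, at 1.18 for GAGAG and 1.27 for CAGCTG (adjusted p = 0.486 for each, Fisher's exact test).

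Against deeper intronic peaks 0 of the 18 words passed adjustment (Fisher's exact test), and 1 had an unadjusted p under 0.05, CAGCTG with 11.6% against 6.40% (p = 0.0467, adjusted p = 0.668). For ACAGTG the odds ratio was 1.17 (0.783 to 1.73) and for TAATTA 1.30 (0.837 to 2.01). These intervals leave room for moderate differences in either direction.

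Among the members themselves, presence in both replicates' lists was compared by 5 properties chosen after the values were seen. It was 40.8% of the 71 members with ACAGTG and 29.9% of the others (odds ratio 1.62, p = 0.106), 34.7% in first introns and 23.9% elsewhere (1.64, p = 0.172), and 26.3% with TAATTA and 34.6% without (0.687, p = 0.268; Fisher's exact test). On X it was 34.7% against 32.1%, and downstream of the start 35.2% against 29.2%. None of the 5 passed (Fisher's exact test, adjusted p from 0.429 to 0.772).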

How the data were processed

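Lim3-eGFP peaks were taken from deposited peak lists of 2 embryo libraries in dm6 coordinates, per the labels. No source used here names the aligner or the peak caller, and read depth is unknown. The authors' signal value describes each deposited peak, the deposited score is derived from the IDR (irreproducible discovery rate) with a ceiling of 1000, and the authors' ranked lists hold the −log10 of the IDR. Deposited thresholded lists hold peaks with an IDR of 0.01 or less. Values per replicate came from each replicate's own lists, and 16 columns of the rankings of both libraries that could not be tied to a replicate by name were not used. Summits were placed on Ensembl BDGP6 release 115, and sequence and transposons came from RefSeq release 6. Unlisted peaks are ranked peaks of the same position that did not pass the IDR limit and overlapped no thresholded peak.

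Shares carry Wilson 95% intervals, which cover counting error only. Odds ratios without bins were computed with 0.5 added to each cell, and their intervals are Wald intervals. Within bins they are Mantel-Haenszel ratios with nothing added, given without intervals. Tests were Fisher's exact (two-sided) and Cochran-Mantel-Haenszel within GC bins of 5 points, with Benjamini-Hochberg adjustment at 0.05, and the word scan was tested on simulated data. Python 3.11.15, numpy 2.4.6, scipy 1.17.1 and pandas 2.3.3 were used. Alternatives were the distance limits, transcripts used, window widths, GC bins, lists of each replicate, the conservative list, the upper 50% by signal and overlap rules.

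The class, the gene lists and the word panel were chosen with earlier results of these data known. Named genes were the hosts of the 12 strongest members, genes with 3 or more members, up to 4 genes per list with a member in both replicates' lists or otherwise up to 2 by signal, motor neuron transcription factors with a member, and members nearest the distance limits. Other names were added after their values were seen, and 1 window that met the criteria for sequences is not reported here.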

Additional observations from a re-analysis of the deposited data

How the results depend on the processing

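The share in a first intron kept its direction and its side of the threshold in all 9 alternatives run, with shares from 66.0% in the canonical transcript alone to 90.0% in the upper 50% by signal. ACAGTG did so in 10 of 11, and its call was lost in windows of 100 bp. The share in both replicates' lists stayed above that of deeper intronic peaks, and with a limit of 1500 bp (32.8%) the call was lost. The share downstream of a start was below that of unlisted peaks by a difference that did not pass. It turned above it without replicate 1 (shares of 62.1% to 65.2% with either replicate left out) and in the upper 50% by signal (63.6%). Arms past the threshold numbered 1, and 0 to 2 with either replicate left out, 0 in the upper 50% by signal and 0 with a limit of 1500 bp. The 215 hexamers higher in members became 78 to 127 with either replicate left out, 129 with a limit of 1500 bp, 136 in windows of 100 bp and 24 within GC bins. The 186 lower ones became 37 to 63 with either replicate left out, 116 in the conservative list, 87 in the upper 50% by signal, 65 with a limit of 1500 bp, 51 in windows of 100 bp and 0 within GC bins. Fewer peaks entered the replicate, conservative, upper 50% and 1500 bp settings, and the cause of the changes was not tested for any setting. In windows of 100 bp the odds ratio was 0.893 for CAGTGG and 0.959 for GAGAG, and for CAGCTG it was 0.648 to 1.03 with either replicate left out and 0.77 in the upper 50% by signal. TAATTA lost its call in 6 of 11 alternatives. No paired analysis was possible because the study has 1 group. Bins and the canonical transcript for introns, and the removal of overlapping listed peaks, were chosen after seeing the data. Depth per library is unknown, and no control library was analysed, so signal not due to the fusion cannot be told apart.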
